A study of Mus musculus with 22 samples.

Results

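The insulin receptor to FOXO signaling chain was followed in mouse liver through 10 genes taken by symbol: Insr, Irs1, Irs2, Pik3r1, Pik3ca, Akt1, Akt2, Gsk3b, Foxo1 and Foxo3. All 10 were present among the 23227 genes of the mRNA count files and among the 23167 gene promoters with counts of H3K27ac, histone H3 acetylated at lysine 27, a mark of active promoters and enhancers. All 10 also passed the filter on low counts in both tables. The livers came from wild-type C57BL/6J mice that were 24 weeks old when killed after an overnight fast. The first group had been on a high-fat diet (S3282, Bioserve) since it was 8 weeks old, 16 weeks in all, and the second on standard chow (Prolab Isopro RMH 3000). Each diet had 3 mRNA libraries and 3 H3K27ac libraries made from pulverized whole liver. The series is about hepatic insulin resistance brought on by diet. The comparison asks how the genes that carry the insulin signal differ between the diets. The labels do not say whether replicates of a diet are separate animals, so p values measure the spread between these libraries.

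Insulin binds its receptor, a tyrosine kinase that phosphorylates the adaptor proteins IRS1 and IRS2. These recruit the lipid kinase PI3K, whose product brings the kinases AKT1 and AKT2 to the membrane. In liver, AKT then holds back GSK3, which relieves glycogen synthase, and drives the transcription factors FOXO1 and FOXO3 out of the nucleus, which lowers transcription of genes of glucose output. When insulin is low, as in fasting, FOXO proteins stay in the nucleus.

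Total counts ran from 20977959 to 23948777 in high-fat-diet mRNA libraries and from 19016275 to 45741794 in chow mRNA libraries, the highest being chow replicate 1. At promoters, H3K27ac totals ran from 1967613 to 3788577 on the high-fat diet and from 2376133 to 4964403 on chow, the lowest being high-fat-diet replicate 1. A level in CPM is the count of a gene for every 1000000 counts of its library, whose size was scaled by TMM. The labels name no batch, and a batch that followed diet cannot be told apart from diet. The summed level of 9 hepatocyte genes was 90430 to 115391 CPM on the high-fat diet and 95529 to 104413 CPM on chow. Alb alone had a mean of 68449 CPM on the high-fat diet and 65188.5 CPM on chow, so the sum mostly followed Alb. Of the 9, 1 was called higher, Ttr (log2 0.59), and 2 lower, Cps1 (log2 −1.19) and Tat (log2 −0.50). Markers of exocrine pancreas differed between the diets: 18 of 19 tested members were lower on the high-fat diet by edgeR and 6 were called by DESeq2. The 20 listed genes summed to 10.8 to 226 CPM on the high-fat diet and to 391 to 2366 CPM on chow. They thus varied widely between libraries of a diet as well, and the source of these pancreas transcripts was not tested. Resident macrophage markers summed to 264 to 492 CPM on the high-fat diet and 215 to 399 CPM on chow, with 1 of 10 (Cd68) called higher. Endothelial markers summed to 341 to 590 CPM on the high-fat diet and 310 to 451 CPM on chow, with 1 of 10 (Eng) higher. Stellate cell markers summed to 216 to 505 CPM on the high-fat diet and 333 to 338 CPM on chow, with 2 of 10 (Col1a1 and Col3a1) higher and 1 (Dcn) lower. Both collagens were far highest in high-fat-diet replicate 3. Col3a1 had 16.6, 27.4 and 89.4 CPM on the high-fat diet, against 14.8, 11.3 and 9.84 CPM on chow. Bile duct markers summed to 47.9 to 72.7 CPM on the high-fat diet and 48.4 to 61.9 CPM on chow. Adipocyte markers summed to 41.6 to 102 CPM on the high-fat diet and 81.2 to 110 CPM on chow, with 1 of 4 tested (Cfd) higher. Lymphocyte markers summed to 11.6 to 17.2 CPM on the high-fat diet and 10.5 to 14.7 CPM on chow, with 0 of 6 tested called by edgeR or DESeq2 and 0 at an unadjusted p under 0.05. At promoters, the median H3K27ac log2 difference was 0.46 over 10 lymphocyte markers and 0.33 over 9 macrophage markers, against −0.003 over all promoters tested. Of these, 8 lymphocyte and 4 macrophage promoters had an unadjusted p under 0.05, against 14% of all promoters tested. Cd68 was called by edgeR (adjusted p = 0.0427), while DESeq2 called 0 in either list. These lists had the highest medians. Medians of the other marker lists ran from −0.25 (hepatocyte) to 0.22 (adipocyte). Their promoters with an unadjusted p under 0.05 were 2 of 9 hepatocyte, 1 of 10 stellate, 3 of 10 endothelial, 3 of 8 bile duct, 2 of 8 adipocyte and 2 of 17 pancreas. No marker in these lists was at 0 in all libraries of a diet. The part of other cell types in the results below was not tested. In whole liver, fewer cells of a type and less RNA per cell cannot be told apart.

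The mRNA of 6 of the 10 chain genes differed between the diets. Irs2 and Gsk3b were lower on the high-fat diet, and Pik3r1, Akt2, Foxo1 and Foxo3 were higher. Foxo3 had the largest difference, 2.48-fold higher, and Irs2 the largest decrease, to a level 1.89-fold lower. Insr, Irs1, Pik3ca and Akt1 did not pass the threshold, an adjusted p of 0.05 in edgeR's quasi-likelihood test with Benjamini-Hochberg adjustment over all 12909 genes tested. Of all genes tested, 35.6% passed, 18% higher and 17.6% lower, so calls were common in these livers. The split depended on the scaling: 2319 genes were higher and 2271 lower with TMM, and 2805 higher and 1646 lower with total counts. At an unadjusted p under 0.05 there were 6 members and 46.6% of all genes. Leaving out chow replicate 2 lowered the calls over all genes to 2899 in place of 4590. In the same 6 members the 3 high-fat-diet libraries lay wholly on 1 side of the 3 chow libraries, which was also so for 50.6% of all genes tested, 25.1% higher and 25.5% lower. The median log2 fold change was −0.05 over the members and 0.02 over all genes tested.

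**Figure D1:**
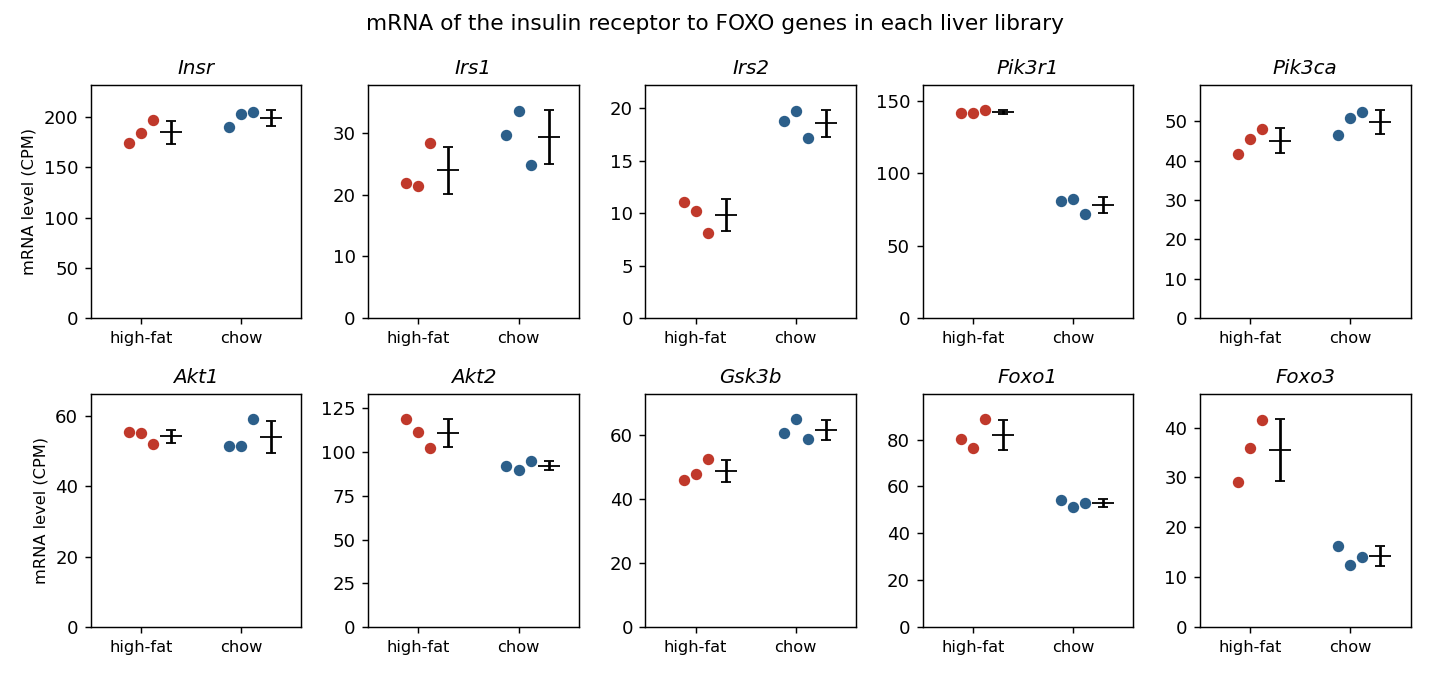
Level of each chain gene in each mRNA library, in CPM on axes that start at 0, with high-fat-diet libraries in red on the left and chow libraries in blue on the right of each panel. Black bars give the mean and SD of 3 libraries, and the points of the diets do not overlap for Irs2, Pik3r1, Akt2, Gsk3b, Foxo1 and Foxo3.

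Insr encodes the insulin receptor. Its mRNA level was 174, 184 and 197 CPM in high-fat-diet replicates 1 to 3, against 190, 203 and 205 CPM in chow replicates 1 to 3. The ranges overlapped, and the log2 difference of −0.11 (SE 0.08) did not pass (edgeR adjusted p = 0.32). Its 95% interval was −0.29 to 0.07, which is 0.820 to 1.05 as a ratio of the diets.

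Irs1 and Irs2 encode the adaptors that the receptor phosphorylates. Irs2 had 11.1, 10.2 and 8.15 CPM in high-fat-diet livers, against 18.7, 19.7 and 17.2 CPM in chow livers. Every high-fat-diet library was below every chow library, and Irs2 fell by 0.92 on the log2 scale (SE 0.13, 95% interval −1.22 to −0.62, edgeR adjusted p = 0.00129). Irs1 had 22.0, 21.4 and 28.4 CPM in high-fat-diet livers, against 29.6, 33.6 and 24.8 CPM in chow livers. High-fat-diet replicate 3 lay above chow replicate 3, and the log2 difference of −0.29 (SE 0.14) did not pass (edgeR adjusted p = 0.145). Without high-fat-diet replicate 3, Irs1 was lower by a log2 of −0.44 and passed (edgeR adjusted p = 0.0334).

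The promoters of the adaptor genes are shown because Irs2 has the lowest mRNA log2 difference of the members and Irs1 the lowest promoter H3K27ac difference. The 120 bases before each annotated start come from RefSeq on GRCm38.p6 (Irs1 at chr1:82291440-82291559, Irs2 at chr8:11008930-11009049, both on the minus strand), 5′ to 3′ on the gene's strand. Capitals mark CACGTG, an E-box, and TGTTTTG, the core of an insulin response element, which overlap by 2 bases in the first match in Irs1.
Irs1: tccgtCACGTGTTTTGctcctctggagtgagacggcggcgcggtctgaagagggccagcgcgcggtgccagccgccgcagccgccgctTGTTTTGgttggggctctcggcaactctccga
Irs2: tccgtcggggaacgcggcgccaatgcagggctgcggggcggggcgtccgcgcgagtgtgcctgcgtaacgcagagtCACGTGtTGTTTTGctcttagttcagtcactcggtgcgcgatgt
In Irs1 the E-box began 115 bases before the start and TGTTTTG began at 111 and again at 32. In Irs2 the E-box began 44 bases before the start and TGTTTTG 37 bases before it. On either strand of the 250 bases before a start, CACGTG was found in 6.02% and TGTTTTG in 5.56% of 32851 promoters of all genes, and both in 0.295%. Among the 14 RefSeq promoters of 9 members, both motifs were found in those of Irs1 and Irs2 and in no other. TGTTTAC, a core bound by FOXO proteins, was found in 3.17% of all promoters and in 1 member promoter, that of Akt1. TCACNCCAC, a sterol regulatory element, was found in 1.05% of all promoters and in no member promoter. The motifs were chosen after the sequences had been seen, and a match is not a bound site. Insr had no entry in that table.

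PI3K is a pair of subunits. Pik3r1 encodes the regulatory subunit that docks on the adaptors, and Pik3ca the catalytic subunit. Pik3r1 had 141, 141 and 144 CPM in high-fat-diet livers, against 80.9, 82.0 and 72.1 CPM in chow livers. The high-fat-diet libraries lay close together and well above chow, and Pik3r1 rose 1.81-fold (log2 0.86, SE 0.08, edgeR adjusted p = 0.000194). Pik3ca had 41.7, 45.5 and 47.9 CPM in high-fat-diet livers, against 46.4, 50.9 and 52.3 CPM in chow livers. The ranges overlapped and the log2 difference of −0.14 (SE 0.09, 95% interval −0.34 to 0.05) did not pass (edgeR adjusted p = 0.226).

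Akt1 and Akt2 encode the kinases that PI3K activates, and AKT2 is the form best known for insulin action in liver. Akt2 had 119, 112 and 102 CPM in high-fat-diet livers, against 92.1, 89.5 and 94.8 CPM in chow livers. The groups did not overlap, and Akt2 rose by 0.27 on the log2 scale (SE 0.08, edgeR adjusted p = 0.0313). The call ended without high-fat-diet replicate 1 or 2 (edgeR adjusted p = 0.0564 and adjusted p = 0.0895) and without chow replicate 1, 2 or 3 (edgeR adjusted p = 0.0791, adjusted p = 0.12 and adjusted p = 0.0853). Akt1 had 55.4, 55.2 and 52.1 CPM in high-fat-diet livers, against 51.4, 51.3 and 59.2 CPM in chow livers. These ranges overlapped, with a log2 difference of 0.01 (SE 0.08, 95% interval −0.19 to 0.20, edgeR adjusted p = 0.955) whose sign was kept in 5 of 11 alternatives.

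Gsk3b encodes a kinase that phosphorylates glycogen synthase and is itself inhibited by AKT. It had 45.9, 47.8 and 52.4 CPM in high-fat-diet livers, against 60.7, 65.1 and 58.8 CPM in chow livers. All high-fat-diet libraries were below all chow libraries, and Gsk3b fell by 0.34 on the log2 scale (SE 0.08, edgeR adjusted p = 0.0148). The call ended without high-fat-diet replicate 2 (edgeR adjusted p = 0.0534), without chow replicate 2 (adjusted p = 0.0646) and with total counts as the scale (adjusted p = 0.0885). In RefSeq, the span of Gsk3b overlaps the non-coding BC031361, which had 26, 27 and 15 counts on the high-fat diet and 84, 36 and 26 counts on chow. The library kit does not mark strand, so reads from the shared span cannot be assigned to either gene with certainty. Overlapping genes of Irs2 (9530052E02Rik) and Pik3ca (Kcnmb3) had at most 7 and 3 counts in any library. RefSeq also places Gm38485 over Foxo3, Gm25617 over Gsk3b, and Gm30150 and Mir6939 over Akt1. These had no row in the table used here, so their share of the reads was not tested.

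Foxo1 and Foxo3 encode the transcription factors at the end of the chain. Foxo3 had 29.1, 36.0 and 41.6 CPM in high-fat-diet livers, against 16.3, 12.4 and 14.0 CPM in chow livers. The lowest high-fat-diet library was above the highest chow library, and Foxo3 rose by 1.31 on the log2 scale (SE 0.15, 95% interval 0.97 to 1.65, edgeR adjusted p = 0.000537). Foxo1 had 80.2, 76.6 and 88.9 CPM in high-fat-diet livers, against 54.4, 51.1 and 53.1 CPM in chow livers. It rose 1.55-fold, again without overlap (log2 0.63, SE 0.08, edgeR adjusted p = 0.000876). Among all tested genes, the 3 whose log2 CPM followed Foxo3 most closely over the 6 libraries were Ssbp4, Rufy4 and Dcaf4, with Pearson r of 0.998, 0.998 and 0.997. For Irs2 they were Ptplad1, Gsto1 and Tbc1d30, with Pearson r of 0.997, 0.997 and 0.995. The 6 libraries part by diet, so genes that differ between the diets have high r with each other.

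Ratios of 2 members within a library do not depend on scaling between libraries, and 4 were compared. The Pik3r1 to Pik3ca count ratio was 3.39, 3.11 and 2.997 in high-fat-diet livers, against 1.74, 1.61 and 1.38 in chow livers, 2.01-fold higher by the difference of mean log2 ratios. The Foxo3 to Foxo1 count ratio was 0.363, 0.469 and 0.468 in high-fat-diet livers, against 0.299, 0.244 and 0.264 in chow livers, 1.603-fold higher. The Irs2 to Irs1 count ratio was 0.505, 0.476 and 0.287 in high-fat-diet livers, against 0.634, 0.588 and 0.694 in chow livers, 1.55-fold lower. Without high-fat-diet replicate 3 that log2 difference was −0.38 in place of −0.63. The Akt2 to Akt1 count ratio was 2.14, 2.02 and 1.96 in high-fat-diet livers, against 1.79, 1.74 and 1.602 in chow livers, 1.19-fold higher. The diets did not overlap in any of the 4 ratios. Each ratio holds a member whose own libraries did not overlap between the diets, as was so for 50.6% of all genes tested. The share over other gene pairs was not counted. The two-sided exact permutation p was 0.1 for each, also after adjustment over the 4, which is the smallest that 3 against 3 libraries allow. Counts were not divided by transcript length, so the ratios show a shift between diets and not which gene of a pair is more abundant.

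**Figure D2:**
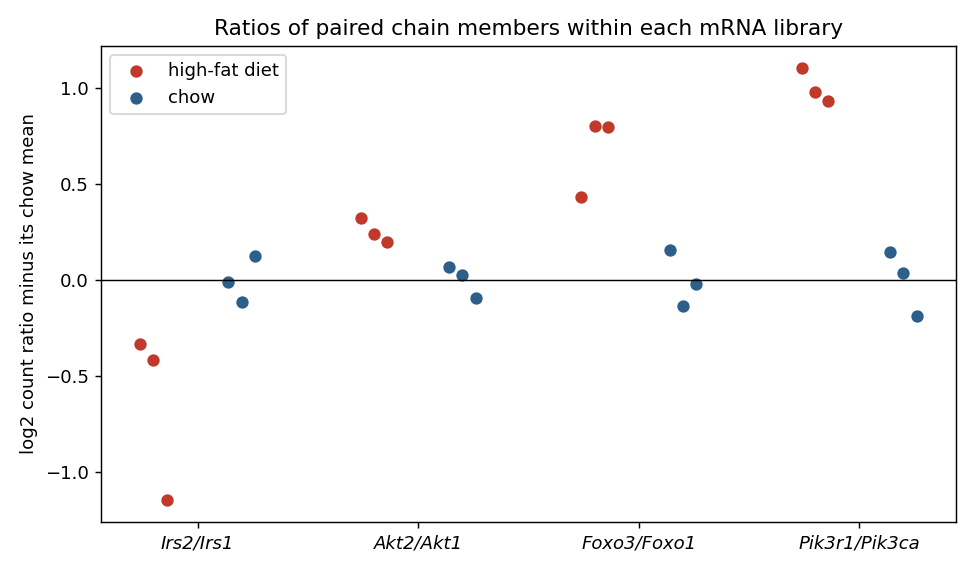
Log2 ratio of the counts of 2 chain genes in each mRNA library, minus the mean of that ratio on chow, with high-fat-diet libraries in red to the left of chow libraries in blue. The high-fat-diet points lie below chow for Irs2/Irs1 and above chow for Akt2/Akt1, Foxo3/Foxo1 and Pik3r1/Pik3ca.

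H3K27ac at the promoters of the 10 genes showed no call between the diets. By edgeR, 0 of 10 member promoters passed, 1 (Irs1) had an unadjusted p under 0.05, and DESeq2 also called 0. Few promoters were called at all: 0.235% of the 20891 tested passed, 0.187% higher and 0.0479% lower, and 14% had an unadjusted p under 0.05. These calls turned on single libraries: 49 promoters passed with all 6. Without high-fat-diet replicate 1, 2 or 3 there were 95, 736 and 8, and without chow replicate 1, 2 or 3 there were 1, 0 and 7. The median log2 difference was −0.05 over the member promoters and −0.003 over all promoters tested. For Irs1 and Gsk3b the diets' libraries did not overlap, both lower on the high-fat diet, as was so for 19.5% of all promoters tested, 9.77% higher and 9.73% lower.

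**Figure D3:**
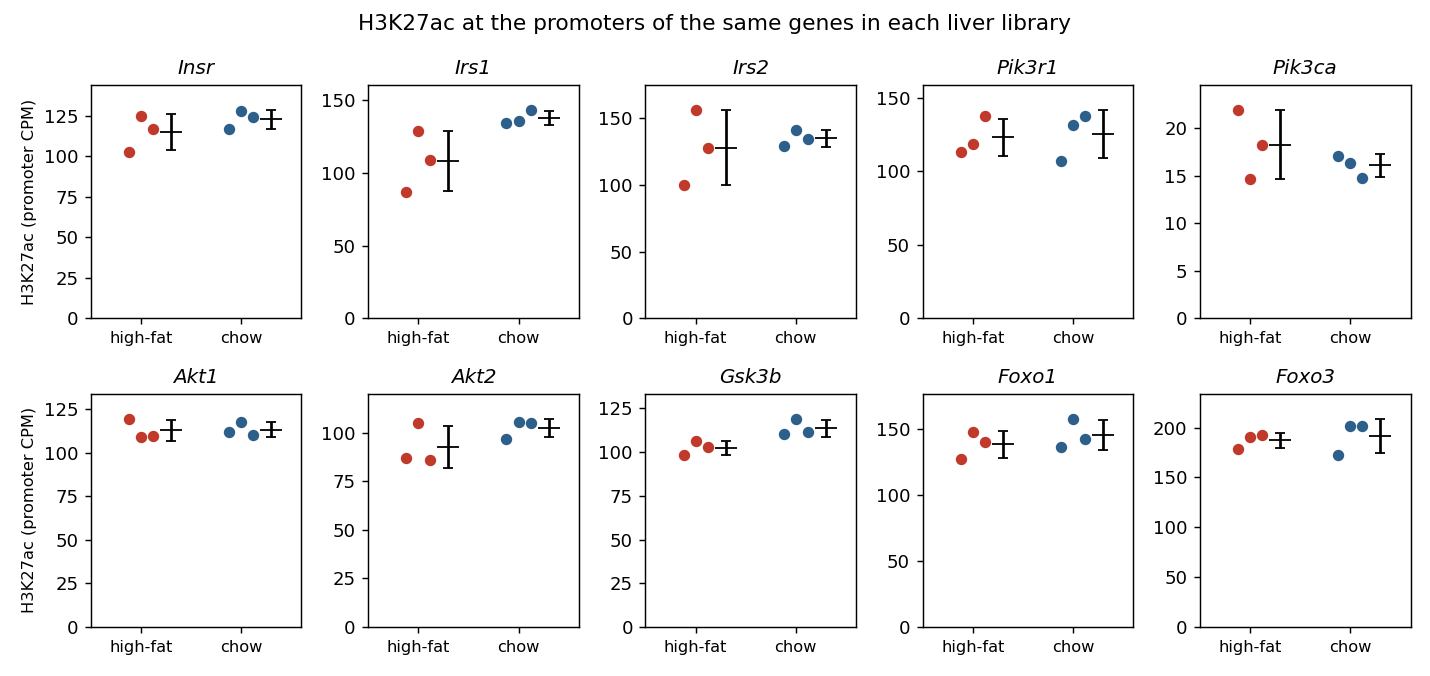
H3K27ac at the promoter of each chain gene in each library, in CPM of all promoter counts on axes that start at 0, with high-fat-diet libraries in red on the left and chow in blue on the right of each panel. Black bars give the mean and SD of 3 libraries, and the points of the diets overlap in all panels but those of Irs1 and Gsk3b.

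The promoter of Irs1 had 87.1, 129 and 109 CPM of H3K27ac in high-fat-diet livers, against 134, 135 and 143 CPM in chow livers. All high-fat-diet values were lower, with a log2 difference of −0.33 (SE 0.11) that did not pass (edgeR adjusted p = 0.178). Without high-fat-diet replicate 2, the difference was −0.47 and passed (edgeR adjusted p = 0.0132), while without replicate 1 it was −0.22 (edgeR adjusted p = 0.399). The promoter of Gsk3b had 98.1, 106 and 103 CPM in high-fat-diet livers, against 110, 119 and 112 CPM in chow livers, a log2 difference of −0.14 (SE 0.09, edgeR adjusted p = 0.504).

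The 4 genes with the largest mRNA differences had overlapping promoter values. The Foxo3 promoter had 178, 190 and 193 CPM in high-fat-diet livers, against 172, 202 and 202 CPM in chow livers. The ranges overlapped, and the 95% interval of the log2 difference, −0.23 to 0.17 around −0.03, lies below the mRNA interval for Foxo3. The Irs2 promoter had 100, 156 and 128 CPM in high-fat-diet livers, against 129, 141 and 134 CPM in chow livers. High-fat-diet replicate 1 was the lowest and replicate 2 the highest of all 6, and the interval was −0.29 to 0.19. The Pik3r1 promoter had 113, 119 and 138 CPM in high-fat-diet livers, against 107, 132 and 138 CPM in chow livers, with an interval of −0.23 to 0.20. The Foxo1 promoter had 128, 148 and 141 CPM in high-fat-diet livers, against 137, 158 and 143 CPM in chow livers, with an interval of −0.25 to 0.14. In these 4 genes, and in Akt2, the intervals for mRNA and promoter H3K27ac did not overlap. The mRNA and ChIP tables were fitted apart, and the difference between the assays was not tested.

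The other promoters had overlapping ranges. Log2 differences were −0.08 for Insr, −0.01 for Akt1, −0.13 for Akt2 and 0.15 for Pik3ca, with adjusted p values from 0.562 to 0.982 (edgeR, n = 3 per diet). The Pik3ca promoter had only 44, 55 and 65 counts in high-fat-diet livers, against 73, 38 and 72 counts in chow livers. Its interval, −0.26 to 0.57, was the widest of the 10. The width of a promoter and the start site used for genes with several are not given in the sources used here.

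**Figure D4:**
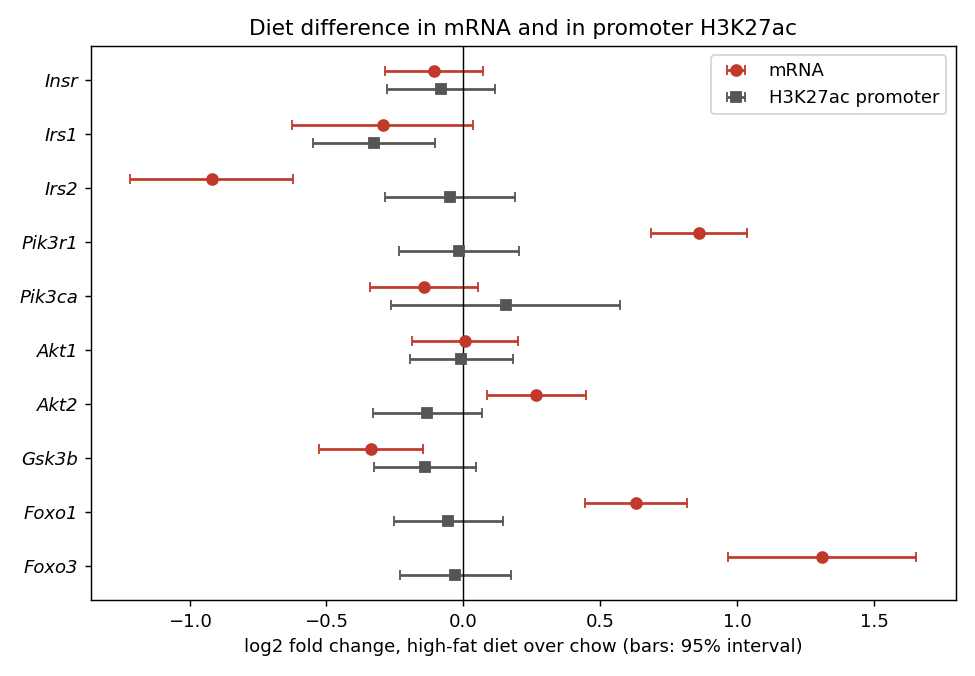
Log2 fold change of each chain gene, high-fat diet over chow, for mRNA (red circles) and promoter H3K27ac (grey squares), with the 95% interval of the fit as bars. The mRNA values run from −0.92 for Irs2 to 1.31 for Foxo3, and the promoter values from −0.33 for Irs1 to 0.15 for Pik3ca.

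Of 22 paralogs and partners of the members, 18 were tested, 2 were called higher, 3 lower and 13 did not pass. The median log2 fold change of those tested was 0.10. For this list and those below, the shares over all genes tested were 18% higher and 17.6% lower. Grb2, an adaptor that links receptors to RAS, rose 1.26-fold, with 51.8, 50.0 and 50.7 CPM on the high-fat diet against 41.3, 39.4 and 40.6 CPM on chow. Gab1, a docking adaptor, rose by 0.43 on the log2 scale (SE 0.11). Sos1, the exchange factor that partners Grb2, fell by 0.59 on the log2 scale (SE 0.08). Pdpk1, the kinase that phosphorylates AKT, fell by 0.45 on the log2 scale (SE 0.12). The paralogs Foxo4 and Gsk3a, chosen after their values were seen, had log2 differences of 0.12 and 0.004 and did not pass. Of 10 genes of the mTORC1 arm below AKT, 3 were higher and 3 lower. Rps6kb1, the kinase of ribosomal protein S6, fell 1.61-fold, and Rheb, which activates mTORC1, fell by 0.36 on the log2 scale. Eif4ebp2, a repressor of translation, rose by 0.43 on the log2 scale, and Tsc2, which holds Rheb back, by 0.32.

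Of 14 genes that restrain insulin signaling, 12 were tested, 1 was higher and 4 were lower. Ptprf, a receptor phosphatase, rose 1.77-fold, with 208, 244 and 264 CPM on the high-fat diet against 135, 129 and 140 CPM on chow. Grb14, which inhibits the insulin receptor, fell by 0.57 on the log2 scale (SE 0.14). Pik3ip1, an inhibitor of PI3K, had 0.466, 0.392 and 0.537 CPM on the high-fat diet against 1.56, 0.590 and 1.02 CPM on chow, a log2 difference of −1.26 (edgeR adjusted p = 0.0382) that was −0.79 without chow replicate 1 (highest adjusted p over the alternatives = 0.187).

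Of 18 textbook FOXO targets other than Insr and Irs2, 2 were higher, 7 were lower and 9 did not pass, with a median log2 fold change of −0.19. Igfbp1, which binds insulin-like growth factors, had 44.8, 32.1 and 32.9 CPM on the high-fat diet, against 192, 163 and 283 CPM on chow. It fell by 2.54 on the log2 scale (SE 0.22, edgeR adjusted p = 0.000176). Pdk4, which restrains glucose oxidation, fell by 1.97 on the log2 scale (SE 0.22). Gadd45a, a stress-response gene, had 2.57, 2.20 and 2.64 CPM on the high-fat diet against 0.949, 0.858 and 0.914 CPM on chow, 2.69-fold higher. Sod2, the mitochondrial superoxide dismutase, rose by 0.24 on the log2 scale (edgeR adjusted p = 0.0375). Foxo1 and Foxo3 mRNA were higher in the same livers. Protein, phosphorylation and location of FOXO were not measured.

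Among 13 glycogen genes, 5 were higher, 2 were lower and 6 did not pass, with a median log2 fold change of 0.21. Ppp1r3c and Ppp1r3b, which bring a phosphatase to glycogen and promote its synthesis, had the largest rises of the list. Ppp1r3c had 118, 86.3 and 86.8 CPM on the high-fat diet against 40.3, 31.5 and 32.8 CPM on chow. Ppp1r3b had 389, 398 and 414 CPM on the high-fat diet against 201, 210 and 166 CPM on chow. Gys2, the liver glycogen synthase and a GSK3 substrate, fell by 0.54 on the log2 scale (SE 0.14). Ppp1r3g, a related targeting subunit, fell by 1.96 on the log2 scale (SE 0.31).

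Of 10 liver genes known to be raised by insulin or feeding, 6 were higher, 2 were lower and 2 did not pass, with a median log2 fold change of 0.85. Scd1, a fatty acid desaturase, had 1009, 3906 and 13282 CPM on the high-fat diet against 1481, 1293 and 1090 CPM on chow. Its log2 difference of 2.24 was 0.93 without high-fat-diet replicate 3, where the call also ended. Elovl6, a fatty acid elongase, fell by 0.82 on the log2 scale. Acacb, which makes malonyl-CoA at mitochondria, fell by 0.74 on the log2 scale, and its difference was −0.48 without high-fat-diet replicate 1.

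Over all 6 lists, 87 genes are not members and 81 of them were tested. Against 18% higher and 17.6% lower over all genes tested, 19 of these were higher and 21 were lower. Without high-fat-diet replicate 2, or without chow replicate 2, 25 were called in place of 40. The calls of Grb2, Sos1, Rps6kb1, Ptprf, Igfbp1, Pdk4, Gadd45a, Ppp1r3b, Ppp1r3c, Ppp1r3g and Elovl6 held under all 11 alternatives. Those of Gab1, Pdpk1, Tsc2, Rheb, Eif4ebp2, Grb14, Gys2, Sod2, Scd1 and Acacb ended without high-fat-diet replicate 2 and without chow replicate 2. Those of Gab1, Eif4ebp2, Sod2, Scd1 and Acacb also ended without chow replicate 1, and those of Pdpk1, Tsc2, Sod2, Scd1 and Acacb without chow replicate 3. Sod2 also lost its call without high-fat-diet replicate 3, with DESeq2 and with no filter on low counts, and was called in 3 of 11 alternatives. Scd1 also lost its call without high-fat-diet replicate 3. Pik3ip1 lost its call with DESeq2 and without any 1 library other than chow replicate 2. With total counts in place of TMM, Pdpk1, Pik3ip1, Scd1 and Acacb lost theirs. None of the 6 lists had a promoter called for H3K27ac, by edgeR or by DESeq2. Such calls were rare over all 20891 promoters tested, at 0.235% by edgeR and 37 promoters by DESeq2. An unadjusted p under 0.05 was found at 0 of 10 promoters of the mTORC1 arm, 2 of 22 of the paralogs and partners, 2 of 14 of the restraining genes, 4 of 20 FOXO targets, 3 of 13 glycogen genes and 3 of 10 genes raised by insulin, against 14% of all promoters tested.

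**Figure D5:**
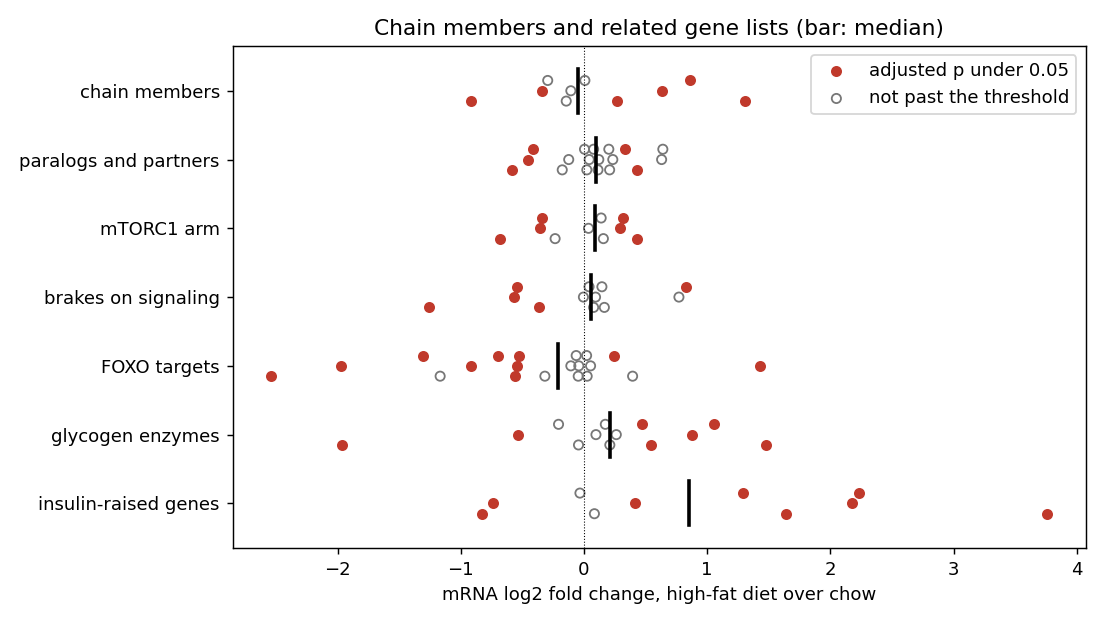
mRNA log2 fold change, high-fat diet over chow, of each tested gene of the chain and of the 6 related lists, with filled red points past the threshold and open points not past it. Vertical bars mark the medians, which run from −0.21 for FOXO targets, Insr and Irs2 included, to 0.85 for genes raised by insulin.

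The authors' deposited mRNA table gives the same direction for the largest differences. That table calls 4788 of its 23227 genes. In the authors' deposited table the log2 fold changes were 0.97 for Foxo3, 0.64 for Foxo1, 0.96 for Pik3r1 and −1.36 for Irs2. For the kinases it differs. The authors' deposited table has −0.30 for Akt1 (adjusted p = 0.0225) and 0.06 for Akt2 (adjusted p = 0.528), where the fit to raw counts called Akt2 and not Akt1. In both, Akt2 lies above Akt1. For Gsk3b the authors' deposited table has −0.20 (adjusted p = 0.0405) and for Pik3ca 0.13 (adjusted p = 0.0998), where the fit to raw counts had −0.14. At promoters, the authors' deposited table calls none of the 10 genes, but it gives no adjusted p for Irs2 (log2 −0.05). Calls were rare there, at 48 of 23167 promoters. Irs1 is the lowest there at −0.29 (adjusted p = 0.394).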

How the data were processed

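Per the submitters' processing notes, the mRNA tools were TopHat 1.4.0, HTSeq, bedtools and DESeq2 1.0.18. For ChIP the notes list Bowtie 0.12.7 and MACS 1.4.0rc2 beside bedtools and DESeq2. The build is mm9, and the role of each tool is not given. The deposited count files hold raw whole-number counts per gene and per gene promoter. The authors' deposited comparison tables give log2 fold changes and adjusted p-values; no source used here says if these log2 values were shrunken. Their normalized mRNA table was not used.

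Each count table was fitted whole with edgeR 4.0.16 in R 4.3.3: filterByExpr, TMM scaling, diet as the sole term, two-sided quasi-likelihood F test, Benjamini-Hochberg adjustment over all features, threshold 0.05. "Rose" and "fell" mean past this threshold. Fold changes are high-fat diet over chow; SE is the log2 value divided by the root of F. Ratios used counts plus 0.5. The fits were also run on simulated counts with planted differences. Those counts held no batch or mixed tissue, and no result here rests on them. Alternatives included DESeq2 1.42.0.

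Union peaks were not used, because no mm9 annotation was at hand to tie them to genes. Members and gene lists were chosen with earlier results of these data known. Named list genes are the 2 largest rises and 2 largest falls past the threshold in each list. A few list genes are not reported here. Genes most like Foxo3 and Irs2 are the 3 with the highest Pearson r of log2 CPM.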

Additional observations from a re-analysis of the deposited data

How the results depend on the processing

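Over 11 alternatives, Irs2, Pik3r1, Foxo1 and Foxo3 mRNA passed in all 11, with log2 fold changes from −1.02 to −0.80, from 0.79 to 0.94, from 0.57 to 0.71 and from 1.18 to 1.43. Akt2 passed in 5 and Gsk3b in 8 of 11. Scaling by total counts in place of TMM moved the median of all genes to 0.10 on the log2 scale, and 1 member was lower in place of 2. Leaving out each library in turn gave 4 to 7 members called in mRNA, 3 to 4 higher and 1 to 3 lower, and 25 to 41 genes of the lists. Over all genes it gave 2899 to 5163 calls, 1489 to 2580 higher and 1410 to 2583 lower, with the fewest without chow replicate 2. For H3K27ac it gave 0 to 736 promoters, 0 to 537 higher and 0 to 199 lower, with the most without high-fat-diet replicate 2, and 0 to 1 member promoters, the 1 being Irs1, lower. Log2 ratio differences ran from −0.78 to −0.38 for Irs2/Irs1, 0.21 to 0.29 for Akt2/Akt1, 0.61 to 0.80 for Foxo3/Foxo1 and 0.91 to 1.08 for Pik3r1/Pik3ca.

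The replicate numbers were not taken to pair libraries. Deviations of same-numbered libraries correlated at 0.04, −0.04 and 0.14 in mRNA and at 0.09, −0.01 and 0.04 at promoters. The chow library that correlated best had the same number for 1 of 3 high-fat-diet libraries in mRNA and 2 of 3 at promoters. With a replicate block, 470 promoters were called in place of 49, 315 higher and 155 lower, and 1 member promoter, Irs1, was lower (log2 −0.35, edgeR adjusted p = 0.0228); in mRNA 5 members were called, without Akt2 (adjusted p = 0.0507), and the list genes Sod2 and Scd1 lost their calls. The causes were not tested. The symbols have 1 promoter row each, so another row could not be tried, and the peak-window alternative was not run. Promoter differences inside the intervals given were not resolved with these 6 H3K27ac libraries. The part of depth in this was not tested.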

Other observations

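High-fat-diet replicate 3 stood apart from the other 2 high-fat-diet livers in a few genes chosen after their values were seen. Bcl6, a transcriptional repressor listed among FOXO targets, had 16.0, 15.3 and 63.1 CPM in high-fat-diet replicates 1 to 3, against 82.8, 63.5 and 65.2 CPM in chow livers. Its log2 difference of −1.17 did not pass (edgeR adjusted p = 0.0978) and was −2.17 without replicate 3. Col1a1, a collagen of stellate cells and fibroblasts, had 4.48, 8.59 and 33.2 CPM in high-fat-diet livers, against 3.43, 1.61 and 1.94 CPM in chow livers. The Col1a1 log2 difference of 2.65 was 1.42 without high-fat-diet replicate 3, and its call ended without chow replicate 2 or 3. In the same library Scd1 was highest and the Irs2 to Irs1 ratio was lowest of the 6. Foxo3 was also highest there, but at 29.1, 36.0 and 41.6 CPM in high-fat-diet livers replicate 3 did not stand apart. These values are given with no explanation.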
